A study of Mus musculus with 12 samples.

Results

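A set of 10 genes that copy DNA or carry cells through mitosis was followed in adult pillar and Deiters' cells: the 6 subunits of the MCM2-7 helicase (Mcm2, Mcm3, Mcm4, Mcm5, Mcm6 and Mcm7), and Mki67, Top2a, Aurkb and Cdk1. They are 10 of the 48440 features in the deposited table and were found by gene symbol. They were chosen by their RPKM values, since Mcm2 and Aurkb had been seen mainly in the Deiters' cell libraries, so the difference between the cell types for these 10 genes is given as a description, with no test. Mcm2 was close to 0 and Aurkb was listed at 0 in pillar cells while both were read in every Deiters' cell library. The other 8 genes were read in all libraries of both cell types, and their means differed by 1.42-fold at most.

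Cells license a replication origin by loading the MCM2-7 complex, a ring of 6 different proteins, onto DNA with the help of ORC, Cdc6 and Cdt1. In S phase the ring becomes the core of the helicase that unwinds DNA, together with Cdc45 and the GINS proteins. Mitosis is then driven by the kinase Cdk1 with its cyclins. Aurkb, the kinase of the chromosomal passenger complex, corrects the attachment of chromosomes to the spindle and acts in cytokinesis. Top2a untangles chromosomes, and Mki67 coats them and is a common marker of cycling cells. Adult pillar and Deiters' cells are supporting cells of the organ of Corti and are regarded as no longer dividing.

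The libraries came from CBA/J mice of 28 to 32 days with no treatment and no transgene named in the labels. Each of the 6 libraries, 3 of pillar cells and 3 of Deiters' cells, held about 1000 cells that were identified by shape, drawn up with a suction pipette and pooled over several mice. Each library was sequenced in 2 lanes, and values are RPKM, reads relative to the length of the transcript and to all mapped reads, averaged over the lanes. The study compared the transcriptomes of the 2 supporting cell types with each other and with those of inner and outer hair cells, which are not used here. Per its methods each animal gave cells of both supporting types, but which libraries share mice is not stated. From the steps between RPKM values, 18641000 to 21558000 reads (to the nearest 1000) lay behind a library. The study's methods give a higher depth for a sample, and the read numbers and limits below rest on the depth worked out from the values. In RNA from many cells, fewer cells that express a gene and less RNA per cell cannot be told apart. The lanes fell into 2 sets by their values, a division seen in the data, and the set holding lanes from pillar library 2 held none from Deiters' library 3. Markers of the labelled cells were compared with limma, where a call needed an adjusted p of at most 0.01 and at least a 2-fold difference. Over all genes tested, the call was met by 14.7% with the higher level in pillar cells and 14.0% with the reverse. Of 12 tested supporting cell genes, 4 were called higher in pillar cells against 1 in Deiters' cells. Of 6 tested Deiters' cell markers, 3 were called higher in Deiters' cells against 1 in pillar cells. Hes5 and Sdk2 were listed at 0 in Deiters' cells. Both were near 0 in pillar cells too, at means of 0.01265 and 0.01121 RPKM, and were not tested. Of 7 tested pillar cell markers, 4 were called higher in pillar cells against 2 in Deiters' cells, and Npy was listed at 0 in pillar cells. The supporting cell list summed to 13730 to 13920 RPKM in pillar cell libraries and 30080 to 33030 RPKM in Deiters' cell libraries. In the same order, the Deiters' cell list summed to 856.9 to 862.3 and 4372 to 4536 RPKM. The pillar cell list summed to 865.5 to 904.5 and 926.1 to 977.9 RPKM, so its sum was higher in Deiters' cells. These sums rest mostly on the most abundant genes. In the same order, S100a1 of the supporting cell list was 12130 and 28800 RPKM, and Epyc of the Deiters' cell list 706.9 and 4221 RPKM. In the pillar cell list Cryab was 343.7 and 745.7 RPKM, while S100b went the other way, at 458.0 and 177.3 RPKM. The sums therefore say little about the rest of each list.

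The genes of DNA replication and mitosis are known targets of E2F factors and of the MuvB complex. The promoters of the members were therefore searched for words that those factors are known for. The CCAAT box, which is not a word of E2F or MuvB, was searched as well. RefSeq start sites on GRCm38.p6 gave a window of 250 bases upstream for 8 of the 10 genes, and Mcm7 has 2 such starts. The E2F words were TTTCGCGC and TTTGGCGC, the cell cycle homology region (CHR) was taken as TTTGAA or TTCGAA, and the CCAAT box as CCAAT. Each was searched on both strands, and matches could overlap. The 4 windows printed here are those of Mcm2, which was read almost only in Deiters' cells, and of Mcm5, Mcm6 and Cdk1, the genes with an E2F word, with all matches in capitals. They lie at chr6:88898781-88899030 (minus strand), chr8:75109259-75109508 (plus strand), chr1:128359706-128359955 (minus strand) and chr10:69352913-69353162 (minus strand), and read 5′ to 3′ towards the gene.
Mcm2: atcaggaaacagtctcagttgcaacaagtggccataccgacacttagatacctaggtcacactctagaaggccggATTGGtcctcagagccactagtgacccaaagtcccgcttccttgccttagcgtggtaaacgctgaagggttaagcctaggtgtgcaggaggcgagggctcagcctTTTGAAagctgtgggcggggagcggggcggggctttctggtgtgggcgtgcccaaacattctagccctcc
Mcm5: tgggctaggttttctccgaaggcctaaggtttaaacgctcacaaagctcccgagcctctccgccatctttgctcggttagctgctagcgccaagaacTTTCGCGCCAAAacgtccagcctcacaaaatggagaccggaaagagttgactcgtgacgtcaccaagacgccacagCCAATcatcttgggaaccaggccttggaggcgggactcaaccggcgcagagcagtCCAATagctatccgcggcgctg
Mcm6: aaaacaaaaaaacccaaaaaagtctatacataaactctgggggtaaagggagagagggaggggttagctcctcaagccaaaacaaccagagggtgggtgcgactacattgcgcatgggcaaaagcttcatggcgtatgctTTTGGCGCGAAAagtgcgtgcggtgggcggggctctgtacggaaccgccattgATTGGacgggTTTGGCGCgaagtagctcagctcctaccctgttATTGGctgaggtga
Cdk1: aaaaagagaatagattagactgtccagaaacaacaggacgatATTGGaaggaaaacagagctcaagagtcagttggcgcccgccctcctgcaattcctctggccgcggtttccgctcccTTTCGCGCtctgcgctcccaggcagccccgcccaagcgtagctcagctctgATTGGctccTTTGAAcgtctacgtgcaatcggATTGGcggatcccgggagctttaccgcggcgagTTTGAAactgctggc
One of the 2 E2F words was found in 3 of the 8 genes, and 0.654% of all 32851 windows of that length hold one. Other spellings of the E2F site were not searched, so a gene without these 2 words may still hold a site. In Mcm5 and in Mcm6 the words on the 2 strands overlap within a run of capitals, and Mcm6 holds 1 more. The Mcm2 window holds a CHR and a CCAAT box but neither E2F word. A CHR was found in 5 of the 8 genes, in Mcm2, Mcm7, Mki67, Top2a and Cdk1, and in 17.1% of all windows. A CCAAT box was found in all 8, and in 33.8% of all windows. Top2a held the most matches to the CHR and to the CCAAT box, 4 and 6. These are matches of letters and do not show that a factor was bound.

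Mcm2 was the helicase subunit whose level set the cell types apart. Its expression was 3.16, 2.75 and 3.48 RPKM in Deiters' cell libraries 1 to 3 and 0.0496, 0.118 and 0.0656 RPKM in pillar cell libraries 1 to 3. The lowest Deiters' cell library was far above the highest pillar cell library. The means were 3.13 ± 0.362 RPKM in Deiters' cells against 0.0777 ± 0.0358 RPKM in pillar cells (SD, n = 3 libraries), a ratio of 40.2. The values stand for 272, 212 and 259 reads in Deiters' cells and for 4, 9 and 5 reads in pillar cells. For Mcm2, Mcm3, Mcm5 and Cdk1 the annotated exon length did not give whole reads in all lanes, so their read numbers rest on a length inferred from the values, which for Mcm2 was 3997 bases beside 6956 bases of annotated exon. In single lanes Mcm2 ranged from 2.62 to 3.56 RPKM in Deiters' cells and from 0.0247 to 0.132 RPKM in pillar cells, so that it was above 0 in all 12. The gene lies on chromosome 6 from 88883474 to 88898780 on the minus strand (ENSMUSG00000002870, GRCm38).

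**Figure D1:**
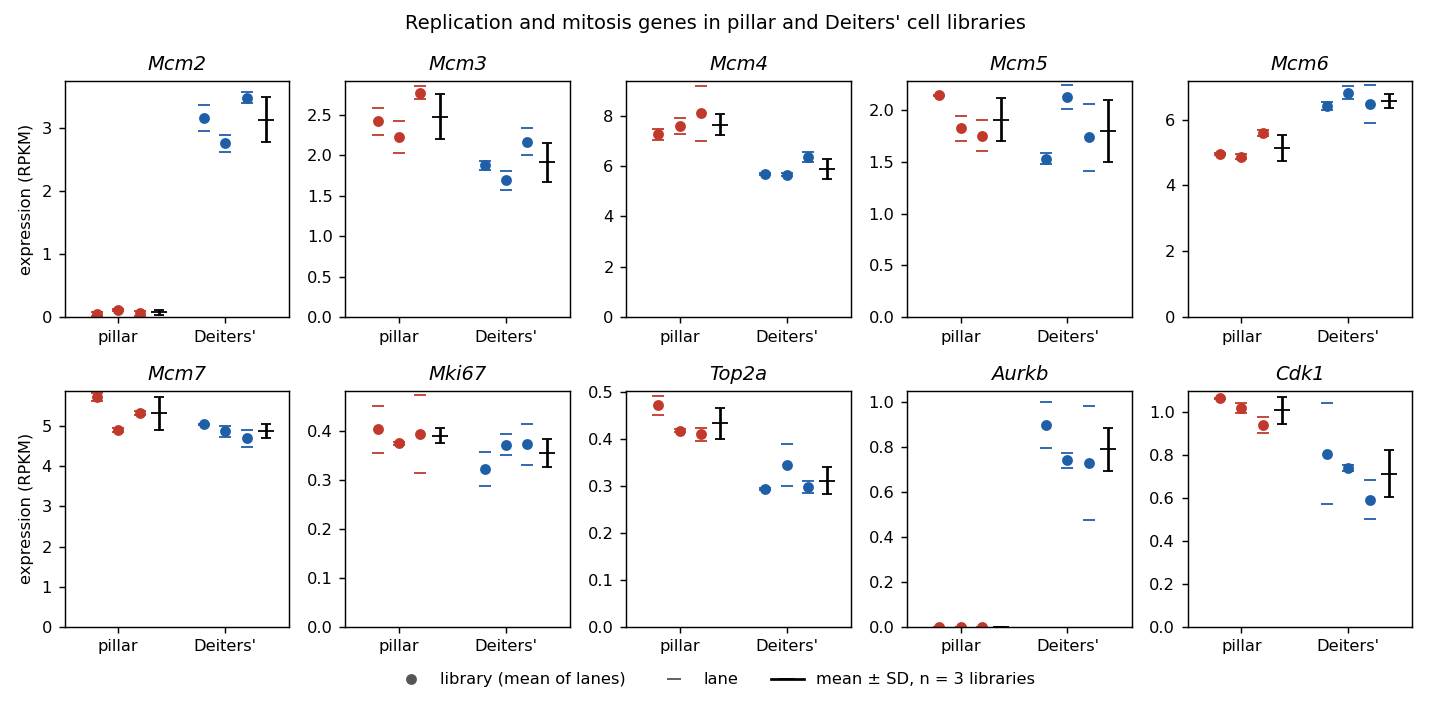
Expression of the 10 genes in RPKM (y axes, each from 0) in pillar cells (red) and Deiters' cells (blue). Points are the 3 libraries of each cell type, short dashes their lanes, and black bars mean ± SD. Mcm2 and Aurkb were at or near 0 in every pillar cell library, and the other panels show levels of the same order in both cell types.

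Mcm4, Mcm6 and Mcm7, the subunits that form the catalytic core of the ring, were the highest of the 10 genes in both cell types, on the RPKM scale. Mcm4 was 7.26, 7.60 and 8.10 RPKM in the pillar cell libraries and 5.67, 5.65 and 6.35 RPKM in the Deiters' cell libraries. All pillar cell libraries were above all Deiters' cell libraries, at a ratio of means of 1.30. Mcm6 had the opposite order, at 4.95, 4.88 and 5.59 RPKM in pillar cells against 6.41, 6.82 and 6.47 RPKM in Deiters' cells. Its Deiters' cell mean of 6.57 ± 0.219 RPKM was 1.28 times the pillar cell mean of 5.14 ± 0.392 RPKM, with no overlap of libraries. Mcm7 was 5.72, 4.91 and 5.33 RPKM in pillar cells against 5.04, 4.87 and 4.69 RPKM in Deiters' cells, and these ranges overlapped. On the minus strand of chromosome 5, Mcm7 overlaps Ap4m1 by 421 bases and Cops6 by 64 bases of exon, both on the plus strand. Ap4m1, an adaptor subunit of vesicle transport, was at 3.85 RPKM in pillar cells against 1.99 RPKM in Deiters' cells, and Cops6, of the COP9 signalosome, was at 76.3 and 83.2 RPKM. Whether the counting used strand is not given in the sources used here, so reads in these stretches cannot be assigned to 1 gene.

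Mcm3 and Mcm5, subunits that neighbour each other in the ring, were lower. Mcm3 was 2.42, 2.23 and 2.78 RPKM in pillar cells against 1.88, 1.69 and 2.17 RPKM in Deiters' cells. Its ranges did not overlap, though the lowest pillar cell library was only slightly above the highest Deiters' cell library. Mcm5 was 2.14, 1.82 and 1.75 RPKM in pillar cells against 1.53, 2.12 and 1.74 RPKM in Deiters' cells. Its libraries were interleaved, and the log2 difference was 0.09.

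The contrast of Mcm2 with its partners was seen most directly in the composition of the helicase transcripts. Mcm2 made up 13.3, 11.5 and 14.0% of the summed MCM2-7 RPKM in the Deiters' cell libraries and 0.22, 0.55 and 0.28% in the pillar cell libraries. Its share in Deiters' cells was between those of Mcm3 (7.90% on average) and Mcm7 (20.2%). The other 5 subunits together reached 22.5 ± 1.05 RPKM in pillar cells against 21.04 ± 0.451 RPKM in Deiters' cells. Mcm4 held the largest share in pillar cells, 33.9%, and Mcm6 the largest in Deiters' cells, 27.2%.

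**Figure D2:**
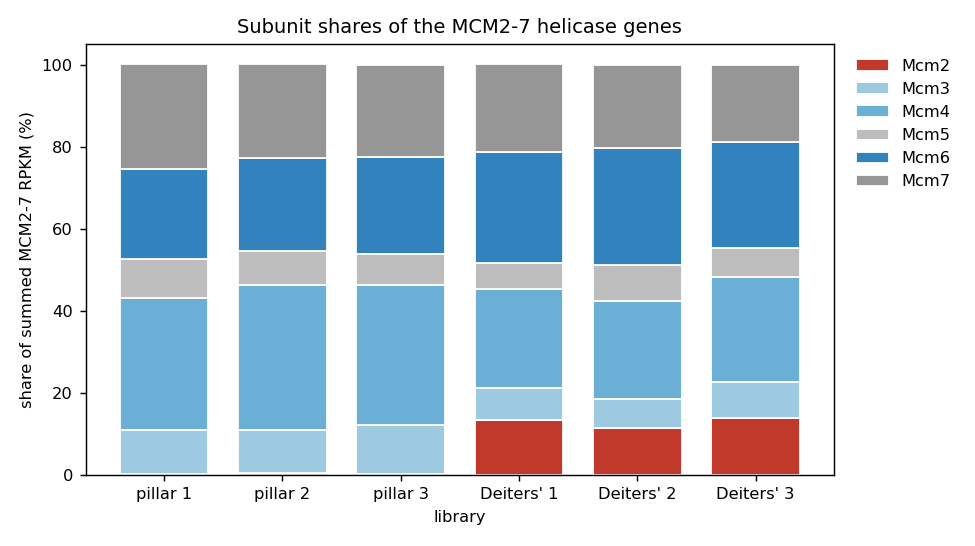
Share of each MCM2-7 gene in the summed RPKM of the 6 genes (y axis, %), for each library (x axis). Mcm2 (red) held 11.5 to 14.0% in the Deiters' cell libraries and at most 0.55% in the pillar cell libraries.

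Aurkb was read in Deiters' cells alone. Its expression was 0.897, 0.740 and 0.728 RPKM in the Deiters' cell libraries, from 57, 42 and 40 reads, and it was listed at 0 in all 6 pillar cell lanes. A single read in a pillar cell lane would have stood for about 0.0352 RPKM, and a count of 0 in 1 library allows up to 3 reads, or at most 0.0533 RPKM. This limit is for each library taken alone and covers counting error only. The counts of 0 in all pillar cell libraries together set a lower limit, which was not worked out. None of 12 housekeeping genes was listed at 0 in any lane. Within Deiters' cells the lanes ranged from 0.475 to 0.999 RPKM, the lowest and one of the highest both in library 3. Aurkb lies on chromosome 11 from 69045647 to 69051664 on the plus strand (ENSMUSG00000020897).

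Cdk1, the kinase that starts mitosis, was 1.06, 1.02 and 0.939 RPKM in pillar cells against 0.806, 0.738 and 0.592 RPKM in Deiters' cells. The pillar cell libraries were all higher, with a ratio of means of 1.42, on 62 to 74 reads per library there and 38 to 60 reads in Deiters' cells. In single lanes the ranges met, since the highest Deiters' cell lane reached 1.04 RPKM and the lowest pillar cell lane was 0.901 RPKM. Top2a was 0.473, 0.418 and 0.411 RPKM in pillar cells against 0.293, 0.345 and 0.298 RPKM in Deiters' cells, again without overlap, at a ratio of 1.39. Mki67 was 0.404, 0.375 and 0.393 RPKM in pillar cells against 0.322, 0.372 and 0.373 RPKM in Deiters' cells. Its ranges stood barely apart, on 72 to 82 reads in pillar cells and 70 to 72 reads in Deiters' cells. For Mki67 and Top2a the variance between libraries was below that of read counting in both cell types, so their SDs are no larger than sampling of reads alone would give. Mki67 and Top2a were low among expressed genes (mean above 0.1 RPKM): 12.2 and 13.5% of the genes expressed in pillar cells were below them, and 15.6 and 14.1% of those expressed in Deiters' cells.

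The order of the 10 genes by RPKM was similar apart from Mcm2 and Aurkb, with the 3 highest exchanging places, as Mki67 and Top2a did. In Deiters' cells it ran Mcm6, Mcm4, Mcm7, Mcm2, Mcm3, Mcm5, Aurkb, Cdk1, Mki67 and Top2a. The libraries of Mcm3 and Mcm5, of Aurkb and Cdk1, and of Mki67 and Top2a overlapped, and those of the other neighbours did not. In pillar cells it ran Mcm4, Mcm7, Mcm6, Mcm3, Mcm5, Cdk1, Top2a, Mki67, Mcm2 and Aurkb, where Mcm7 and Mcm6 alone overlapped as neighbours. In all, 3 of the 10 genes were higher in every Deiters' cell library, 5 were higher in every pillar cell library and 2 overlapped. Over all 17188 genes tested, 38.9% were higher in every Deiters' cell library and 37.6% in every pillar cell library, 76.5% together. With the call used for the other genes (limma, Benjamini-Hochberg adjusted p of at most 0.01 and at least a 2-fold difference), Mcm2 and Aurkb counted among the 14.0% of all genes called higher in Deiters' cells. No member was among the 14.7% called higher in pillar cells, and 28.7% of all genes were called in either direction. Since this contrast chose the genes, nothing is read from these shares. Mcm2 and Aurkb were the members inside the call, at log2 differences on the log2(RPKM + 0.1) scale (pillar minus Deiters') of -4.20 and -3.15. The nearest members outside it were Mcm6 at -0.35 and Cdk1 at 0.46. The median of the 10 was 0.12, beside 0.0 over all genes tested.

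The other genes of the pathway were taken from lists of DNA replication, mitosis and G1/S genes that leave out the 10 members. Of 151 such genes tested, 33 were called higher in Deiters' cells (21.9%), 18 in pillar cells (11.9%), and 100 did not pass. Their median log2 difference was -0.12. In DNA replication, 10 of 59 genes were called higher in Deiters' cells against 3 in pillar cells, with a median of -0.19. In mitosis, 18 of 67 were called higher in Deiters' cells against 12 in pillar cells, with a median of -0.23. Nothing particular to a list is read from these counts. Differences below are pillar minus Deiters' on the log2(RPKM + 0.1) scale with the standard error, and adjusted p-values are from limma.

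**Figure D3:**
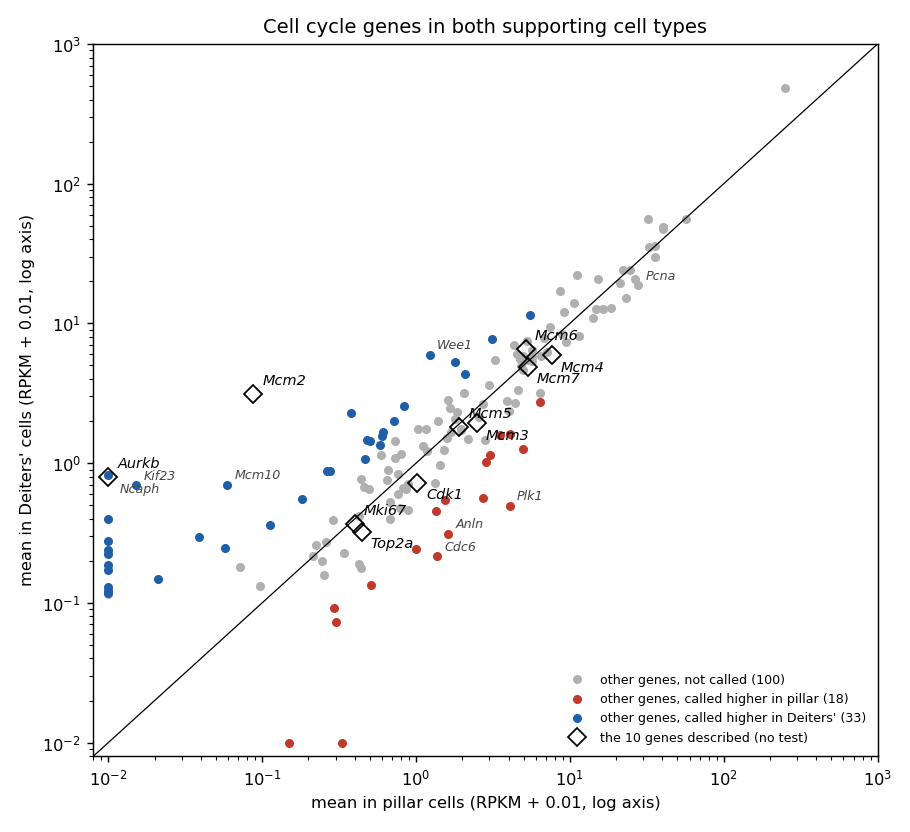
Mean expression of the listed cell cycle genes in pillar cells (x axis) and Deiters' cells (y axis), both as RPKM + 0.01 on log axes. The diagonal marks equal levels, colours mark genes called by limma, and diamonds are the 10 members, 8 of which lie near the diagonal. Of the other genes 33 were called higher in Deiters' cells against 18 in pillar cells.

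Among genes of origin licensing and helicase loading, 5 of 21 were called higher in Deiters' cells against 2 in pillar cells. Mcm10, which joins the helicase to the polymerase, followed Mcm2: it was 0.602, 0.614 and 0.858 RPKM in Deiters' cells against 0.0451, 0.0478 and 0.0541 RPKM in pillar cells. The difference was -2.39 ± 0.17 (adjusted p = 3.1e-05), and the libraries did not overlap. Gmnn (geminin), the inhibitor of Cdt1, was 7.71 RPKM in Deiters' cells against 3.09 RPKM in pillar cells (-1.30 ± 0.07, adjusted p = 9.7e-06). Topbp1, which helps fire origins, was 1.46 and 0.468 RPKM in the same order (adjusted p = 6.6e-05). The loading factors Cdc6 and Cdt1 were called in opposite directions. Cdc6 was 1.36 ± 0.130 RPKM in pillar cells against 0.205 ± 0.0911 RPKM in Deiters' cells (2.30 ± 0.22, adjusted p = 1.3e-04). Cdt1 was low in both, at 0.0471 RPKM in pillar cells against 0.238 RPKM in Deiters' cells (-1.19 ± 0.22, adjusted p = 0.0026). Its adjusted p ranged up to 0.035 among the alternatives and the call was lost in 8 of them. Gins3, a subunit of GINS, was 4.97 RPKM in pillar cells against 1.24 RPKM in Deiters' cells (1.92 ± 0.09, adjusted p = 4.4e-06). Cdc45 (1.38 and 2.0 RPKM in pillar and Deiters' cells) and Mcmbp, a binding partner of the MCM proteins (4.94 and 4.66 RPKM), were not called.

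At the replication fork, 5 of 30 genes were called higher in Deiters' cells against 1 in pillar cells. Timeless, of the fork protection complex, was 0.874 RPKM in Deiters' cells against 0.255 RPKM in pillar cells. Pola1, the catalytic subunit of the primase polymerase, was 0.546 and 0.171 RPKM, and Rfc3, of the clamp loader, was 4.36 and 2.07 RPKM. The adjusted p was 1.9e-04 or less for each of the 3 genes, and the Rfc3 difference of -1.04 was near the 2-fold limit and lost its call in 5 alternatives. Uhrf1, which maintains DNA methylation behind the fork, was the exception, at 1.34 RPKM in pillar cells against 0.448 RPKM in Deiters' cells (adjusted p = 6.5e-05). Pcna, the sliding clamp, was 27.9 RPKM in pillar cells against 18.8 RPKM in Deiters' cells, below the 2-fold limit at 0.57 ± 0.05. None of the 8 genes of nucleotide supply was called.

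Of the chromosomal passenger complex, which holds Aurkb, the other subunits were read in both cell types. Incenp, the scaffold, was 2.29, 1.77 and 1.90 RPKM in Deiters' cells against 0.693, 0.521 and 0.908 RPKM in pillar cells, and was called higher in Deiters' cells (-1.39 ± 0.20, adjusted p = 7.5e-04). Birc5 (survivin) was 0.967 RPKM in Deiters' cells against 1.42 RPKM in pillar cells, and Cdca8 (borealin) was 1.31 and 1.10 RPKM. Neither was called, with adjusted p of 0.037 and 0.071 and differences of 0.53 and -0.23. So Aurkb alone of these 4 subunits was listed at 0 in pillar cells. Its paralog Aurka, the kinase of spindle poles, was 1.74 RPKM in Deiters' cells against 1.14 RPKM in pillar cells and was not called, since its difference of -0.57 was under 2-fold. With the kinetochore and centromere genes, 3 of 18 were called in each direction. Hjurp, the chaperone that loads the centromeric histone, was 2.56 RPKM in Deiters' cells against 0.822 RPKM in pillar cells (adjusted p = 1.6e-05). Sgol1 (shugoshin), which protects cohesion at centromeres, was 0.502 RPKM in pillar cells against 0.125 RPKM in Deiters' cells (adjusted p = 7.2e-04), and its call was lost in 2 alternatives.

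Among mitotic kinases, cyclins and checkpoint genes, 6 of 21 were called higher in Deiters' cells against 4 in pillar cells. The regulators of Cdk1 were split. Wee1, the kinase that inhibits Cdk1, was 5.96 ± 0.321 RPKM in Deiters' cells against 1.22 ± 0.0256 RPKM in pillar cells (-2.20 ± 0.07, adjusted p = 9.1e-07). Cdc25b, a phosphatase that activates it, was 2.73 ± 0.0915 RPKM in pillar cells against 0.556 ± 0.0499 RPKM in Deiters' cells (2.11 ± 0.10, adjusted p = 4.5e-06). Plk1, a kinase that promotes entry into mitosis, was 3.96, 4.26 and 3.91 RPKM in pillar cells against 0.570, 0.378 and 0.512 RPKM in Deiters' cells. Its pillar cell mean was 8.31 times that of Deiters' cells (2.83 ± 0.14, adjusted p = 6.3e-06). Of Ccna2, Ccnb1 and Ccnb2, cyclin partners of Cdk1, 1 was called. Ccna2 was 0.574 RPKM in pillar cells against 1.35 RPKM in Deiters' cells (-1.08 ± 0.18, adjusted p = 0.0018), a call that was lost in 4 alternatives. Ccnb1 was 0.791 and 1.16 RPKM and was not called. Ccnb2, named after its values were seen, was 3.87 and 2.80 RPKM, higher in every pillar cell library, and was not called either. Ccnf, a cyclin of an F-box ubiquitin ligase, was 0.489 and 1.43 RPKM (adjusted p = 3.4e-04).

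The spindle, cytokinesis and condensin genes held 9 of 28 called higher in Deiters' cells and 5 called higher in pillar cells. Ncaph, the kleisin subunit of condensin I, was 0.550, 0.976 and 0.910 RPKM in Deiters' cells and was listed at 0 in all pillar cell lanes (adjusted p = 2.9e-05). Kif23, a kinesin of the central spindle, was 0.652, 0.712 and 0.690 RPKM in Deiters' cells and above 0 only in pillar cell library 2, at 0.0154 RPKM (adjusted p = 6.4e-06). These had levels close to that of Aurkb in Deiters' cells. The other condensin genes of the list, named after their values were seen, did not follow Ncaph as a group. Smc4 was 4.06 and 1.6 RPKM in pillar and Deiters' cells, and Ncapd2 6.42 and 2.73 RPKM. Both were called higher in pillar cells (adjusted p = 1.8e-05 and 6.6e-06). Smc2 (3.27 and 5.49 RPKM) and Ncapg (0.0862 and 0.121 RPKM) were not called. Genes of cytokinesis and the spindle were also called higher in pillar cells. Anln (anillin), of the contractile ring, was 1.61 RPKM in pillar cells against 0.303 RPKM in Deiters' cells (adjusted p = 1.7e-05), and Prc1, which bundles the microtubules of the central spindle, was 0.985 and 0.231 RPKM (adjusted p = 7.7e-05).

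**Figure D4:**
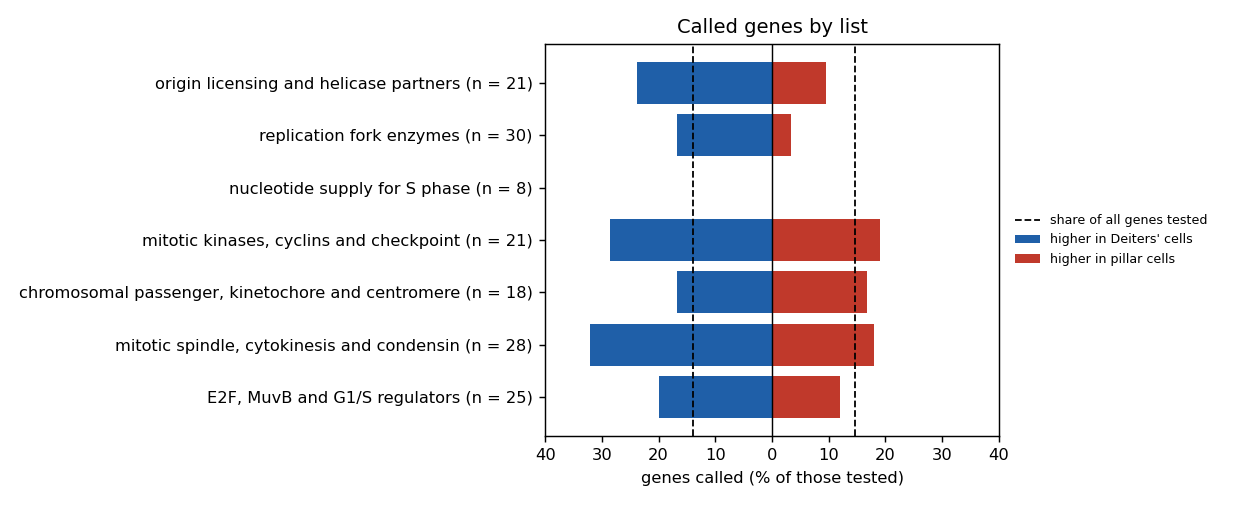
Share of tested genes in each list (x axis, %) that limma called, to the left those higher in Deiters' cells (blue) and to the right those with the opposite direction (red). Dashed lines mark the shares over all genes tested, 14.0% and 14.7%. None of the 8 nucleotide supply genes was called.

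Of the G1/S regulators, 5 of 25 were called higher in Deiters' cells against 3 in pillar cells. Ccnd1 (cyclin D1) was 2.28 ± 0.252 RPKM in Deiters' cells against 0.368 ± 0.105 RPKM in pillar cells (-2.36 ± 0.18, adjusted p = 4.1e-05). Its paralog Ccnd2 had the reverse order, 2.86 RPKM in pillar cells against 1.02 RPKM in Deiters' cells (1.41 ± 0.14, adjusted p = 1.2e-04). Ccne1 (cyclin E1) was 3.0 RPKM in pillar cells against 1.13 RPKM in Deiters' cells, and Cdc25a, the phosphatase that activates its kinase, was 1.54 and 0.534 RPKM, with adjusted p of 2.7e-05 and 1.3e-04. The count for Deiters' cells was 2 without Deiters' library 3 and 3 without pillar library 2. The paralogs of the members that act outside the MCM2-7 ring or outside mitosis were not called. Mcm8 and Mcm9, of recombination repair, were 0.808 and 2.16 RPKM in pillar cells and 0.651 and 1.48 RPKM in Deiters' cells. Top2b, the paralog of Top2a, was 8.41 RPKM in pillar cells against 5.41 RPKM in Deiters' cells, well above Top2a in both.

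The pattern of Aurkb, listed at 0 in every pillar cell lane and above 0 in every Deiters' cell lane, was shared by 601 of the genes tested (3.5%). The reverse was found in 300 genes (1.75%). Of the 601, 80 had a Deiters' cell mean at least as high as that of Aurkb, which is itself among them. The listed pathway held 11 other genes of the first pattern, named here after their values were seen: Cdc25c, Chaf1a, Ckap2, Dlgap5, E2f1, Foxm1, Kif15, Kif18b, Kif2c, Ncaph and Ttk. Apart from Ncaph they were low in Deiters' cells as well, from 0.106 RPKM for Kif15 to 0.390 RPKM for Kif2c. The reverse pattern was found in Kif14 and Oip5, at 0.138 and 0.319 RPKM in pillar cells. The genes whose values over the 6 libraries were nearest to those of Mcm2, by distance between centred log2(RPKM + 0.1) profiles among 13630 named protein-coding genes, were Syt9, Coro2a and Tlr4, at distances of 0.28, 0.31 and 0.40. Nearest to Aurkb were Treml1, Fpr1 and Epx, at 0.07, 0.07 and 0.16. Coro2a was 4.64 RPKM in Deiters' cells against 0.159 RPKM in pillar cells, and Epx was 0.835 RPKM in Deiters' cells and listed at 0 in pillar cells. With 3 libraries in each cell type, this distance mostly reflects the size of the difference between the cell types.

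Markers of other cells differed between the cell types as Mcm2 and Aurkb did, in part. The counts below stand beside a call in 28.7% of all genes tested, 14.0% towards Deiters' cells and 14.7% towards pillar cells. All 7 tested eosinophil markers were called higher in Deiters' cells, and their summed expression was 92.0 to 94.8 RPKM in the Deiters' cell libraries and 0.0687 to 0.566 RPKM in the pillar cell libraries. Prg3, Epx, Ear1, Ear6, Siglecf and Ccr3 of that list were at 0 in all pillar cell lanes, and Siglecf was at 0 in Deiters' cells too. Of 6 primary granule genes, which neutrophil precursors that still divide are known to express, 4 were called higher in Deiters' cells against 0 in pillar cells. They summed to 113 to 114 RPKM in Deiters' cells and 23.7 to 24.6 RPKM in pillar cells. Late neutrophil and B cell lists had the opposite direction. Of 8 genes of late neutrophils, 7 were called higher in pillar cells, at 512 to 532 RPKM there and 162 to 189 RPKM in Deiters' cells. Of 6 tested B and plasma cell genes, 5 were called higher in pillar cells, at 40.2 to 45.4 and 11.5 to 12.4 RPKM. Red cell and erythroblast genes were at 4814 to 4892 RPKM in pillar cells and 2982 to 3467 RPKM in Deiters' cells, with 2 of 10 called higher in pillar cells against 1 in Deiters' cells. The sums of 9 macrophage and monocyte genes overlapped, at 16.1 to 18.8 RPKM in pillar cells and 15.2 to 18.5 RPKM in the other cell type, with 2 and 1 called higher. Those of T and NK cell genes were low, at 1.93 to 1.94 RPKM in pillar cells and 4.43 to 5.28 RPKM in the other cell type, with 1 called in each direction. Of 6 blood progenitor genes 2 were called higher in pillar cells against 1 in Deiters' cells, at 3.306 to 3.925 and 2.173 to 2.58 RPKM. Of 12 hair cell markers, 11 were called higher in pillar cells against 1 in Deiters' cells, at 700.3 to 737 and 227 to 234.3 RPKM. In the same order, fibrocyte, bone and mesenchyme genes summed to 2208 to 2233 and 1397 to 1434 RPKM, with 4 and 1 called higher. Endothelial genes summed to 12.18 to 13.14 and 4.973 to 5.34 RPKM, with 3 and 1 called higher. Schwann cell, glia and neuron genes summed to 34.46 to 35.55 and 52.85 to 53.01 RPKM, with 1 and 2 called higher. The part of these cells in the levels of the 10 genes was not tested.

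**Figure D5:**
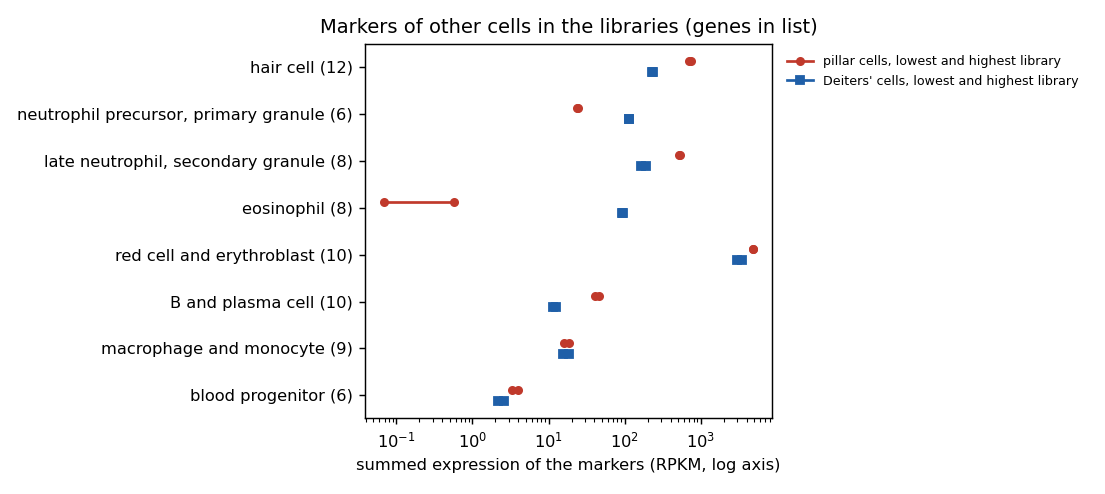
Summed expression of marker genes of other cells (x axis, RPKM, log axis) in pillar cells (red) and Deiters' cells (blue), from the lowest to the highest of 3 libraries. The number of genes in each list is given in parentheses. Eosinophil and primary granule markers were higher in Deiters' cells, and late neutrophil, B and plasma cell and hair cell markers were higher in pillar cells.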

How the data were processed

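RNA was measured in 3 pillar cell and 3 Deiters' cell libraries of 2 lanes each. CLC Genomics Workbench was used by the authors for mapping to mm10 (GRCm38), and they deposited RPKM for each lane. The annotation release and strand setting are not given in the sources used here. Identifiers of 48058 of 48440 features matched GENCODE M21, which gave coordinates and exon lengths. With those lengths, 0.01 of a read or less separated every lane from whole reads in 14336 of 20010 features (71.6%), and where the exon length gave none, the smallest length that did was used. Reads describe depth and were not tested. The lanes were averaged, and p-values measure the spread between 3 libraries, made from separate pools of cells.

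The 17188 genes whose mean exceeded 0.1 RPKM in pillar or Deiters' cells were compared as log2(RPKM + 0.1) with limma 3.58.1 (lmFit, eBayes with trend) in R 4.3.3, which had been tested on simulated data, with Benjamini-Hochberg adjustment. The simulation had no read counting and did not change low genes, so it does not cover calls among them. Folds on this scale understate low genes. An exact permutation test of 3 against 3 libraries cannot give a two-sided p below 0.1. The members and lists were chosen with earlier results of these data known. Other genes named were those called with the largest differences, up to 4 in each list, with a mean of at least 0.5 RPKM in 1 cell type, and fixed partners and paralogs. Pathway genes listed at 0 in every lane of 1 cell type and read in every lane of the other are given whatever their values. The same holds for the sum of each marker list. Ccnb2, the condensin genes other than Ncaph and single marker genes were named after their values were seen. Alternatives changed the pseudocount, filter, scaling, trend, lanes, libraries and block.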

Additional observations from a re-analysis of the deposited data

How the results depend on the processing

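Called genes, given as higher in Deiters' cells and higher in pillar cells, moved by over 1.5 times chiefly with the settings for low values. With a filter above 1 RPKM they were 1224 and 1572 over all genes (2404 and 2534 as reported), 8 and 6 in mitosis, and in Deiters' cells 4 in DNA replication and 2 among G1/S regulators, where fewer genes were tested. With a pseudocount of 1 RPKM they were 778 and 1001 over all genes, 1 and 1 in DNA replication, 2 and 3 in mitosis, and 1 and 0 among G1/S regulators. With a pseudocount of 0.01 RPKM, 5 DNA replication genes were higher in pillar cells. Lanes of either set alone, chosen after seeing the data, gave 3 G1/S regulators higher in Deiters' cells. Leaving out 1 library gave 2221 to 2380 and 2401 to 2482 over all genes, 9 to 11 and 3 to 4 in DNA replication, 18 to 19 and 10 to 12 in mitosis, and 2 to 5 and 3 among G1/S regulators. In all, 124 of 144 counts stayed within 1.5 times.

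No difference of a called gene changed sign. The Mcm2 difference was -5.23 and -1.93 with pseudocounts of 0.01 and 1 RPKM, and that of Aurkb -6.31 and -0.84. Mki67 was at -0.05 in one lane set and 0.23 in the other, and Cdk1 ranged from 0.15 to 0.65. The 639 values for other named genes include those of genes that were not called to begin with and so had no call to lose. Of these values, 605 lost no call and 34 lost a call, 19 of them with the pseudocount of 1 RPKM. The size of a difference could still move where no call was lost. Whether the library numbers pair the libraries is not stated. Deviations of same-numbered libraries correlated at -0.286, 0.38 and 0.318 over 11516 genes. Differently numbered libraries were not compared in this way, so these values do not settle the pairing. With the replicate block, 2253 and 2450 genes were called, and 3 G1/S regulators higher in Deiters' cells. Cdk1, Mki67, Top2a and Aurkb rest on under 100 reads per library, which limits how small a difference could be seen.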
